A study of Mus musculus with 9 samples.

Results

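Csf3, Csf2 and Mif were followed in the colon of mice with chemically induced colitis. They are 3 of the 84 genes of a mouse wound healing PCR array. They were chosen by function, as the colony-stimulating factors for granulocytes and macrophages and the macrophage factor Mif. No cut on their values was used, but earlier results of these data were known. Other cytokines and chemokines of the array act on these cells too. The 3 groups, listed from the co-treated one to the untreated one, were DSS+DPG, DSS and UN. All were C57BL/6 female mice of 8 to 9 weeks. DSS+DPG mice received dextran sodium sulphate (DSS) at 3% for 7 days together with dipotassium glycyrrhizate (DPG) at 8 mg/kg/day by oral gavage. DSS mice received 3% DSS for 7 days, and UN mice had regular drinking water only. The paper names no gavage for the DSS and UN mice, so DPG and gavage cannot be told apart here. DSS is a sulphated polysaccharide that injures the colonic epithelium, and DPG is a salt of glycyrrhizin, the main saponin of licorice root. Each group is 1 pool of colon RNA from 5 mice, of which 1 microgram was reverse transcribed, and each pool was measured on 3 arrays, 9 arrays in all. The arrays of a group are therefore technical repeats of 1 pool, and every SD and p-value below measures the spread between arrays and not the spread between mice.

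Csf3 encodes G-CSF, the factor that drives production and release of neutrophils from the bone marrow, and it is made by epithelial cells, fibroblasts, endothelial cells and macrophages when they are exposed to IL-1, TNF or bacterial products. Csf2 encodes GM-CSF, which acts on macrophages, dendritic cells and granulocytes, and in the gut is made by innate lymphoid cells, T cells and epithelium and takes part in epithelial repair. Mif encodes macrophage migration inhibitory factor, which most cell types hold preformed in the cytoplasm, which counteracts glucocorticoids and which signals through CD74. By the RefSeq table of assembly GRCm38.p6, Csf3 lies at chr11:98700183-98703631, Csf2 at chr11:54247270-54249899 and Mif at chr10:75859353-75860277, and the accessions of all 3 assays matched that table.

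Each assay gives a threshold cycle (Ct), the PCR cycle at which its product crosses a set fluorescence. A Ct lower by 1 cycle stands for a doubling of template, so Ct is a log2 scale on which a low value is a high level. PCR ran for 40 cycles, and a well without a Ct or with one above 38 was set to 38. From the Ct of a gene the average of the housekeeping genes Actb, B2m, Gapdh, Gusb and Hsp90ab1 on the same array was subtracted (delta Ct), and minus delta Ct is used below so that a higher value is a higher level. Each assay has its own efficiency, so levels are compared between groups for 1 gene and never between genes.

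The mean Ct of the 5 housekeeping genes was 23.43 to 23.45 on the DSS+DPG arrays, 22.16 to 22.31 on the DSS arrays and 21.99 to 22.02 on the UN arrays. The median Ct of the 84 panel genes was 29.60 to 29.69 on the DSS+DPG arrays, 26.57 to 26.77 on the DSS arrays and 27.84 to 27.89 on the UN arrays. Both came later with DSS+DPG than in either other group, so that the members' changes below depend on the reference, as shown at the end. Epithelial Cdh1 (E-cadherin) and smooth muscle Acta2 had a Ct no later than 24.98 on every array, so both tissue layers of the colon were detected.

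Csf3 showed the largest changes of the 3 genes. It was 253-fold higher in DSS than in untreated colon, and DSS+DPG colon held 31.5 times less Csf3 than DSS colon, which still left it 8.04 times above untreated colon. Its Ct was 34.80, 35.41 and 35.31 on the DSS+DPG arrays, 29.11, 28.89 and 28.96 on the DSS arrays and 37.70, 36.01 and 36.51 on the UN arrays. DSS arrays were earliest by a wide margin, UN arrays were latest, and no array of any group overlapped another group. Csf3 was near the end of the run outside the DSS group, with a Ct above 35 on all 3 UN arrays and on 2 of the 3 DSS+DPG arrays. Minus delta Ct averaged -11.73 ± 0.34 in DSS+DPG, -6.76 ± 0.037 in DSS and -14.74 ± 0.87 in UN (SD, n = 3 arrays each).

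The 9 arrays were fitted together in limma, with Benjamini-Hochberg adjusted p-values over the panel. Csf3 rose in DSS against UN by 7.98 ± 0.40 on the log2 scale (SE, 95% confidence interval 7.05 to 8.92, adjusted p = 2.58e-07). Only 2 of the 84 panel genes rose more. Between DSS+DPG and DSS the log2 change of Csf3 was -4.98 ± 0.40 (interval -5.92 to -4.04, adjusted p = 5.69e-06), the third lowest value of the panel. Set against UN, DSS+DPG colon differed by 3.01 ± 0.40 (interval 2.07 to 3.95, adjusted p = 0.000137), the fourth highest value of the panel. The comparisons of DSS with UN and of DSS+DPG with DSS share the DSS arrays, so the rise and the fall are not independent measurements. In pooled tissue RNA, fewer cells of a type and less RNA per cell cannot be told apart. With every Ct above 35 set to 35, the log2 changes were 6.24 in DSS against UN, -4.74 in DSS+DPG against DSS and 1.51 in DSS+DPG against UN.

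**Figure D1:**
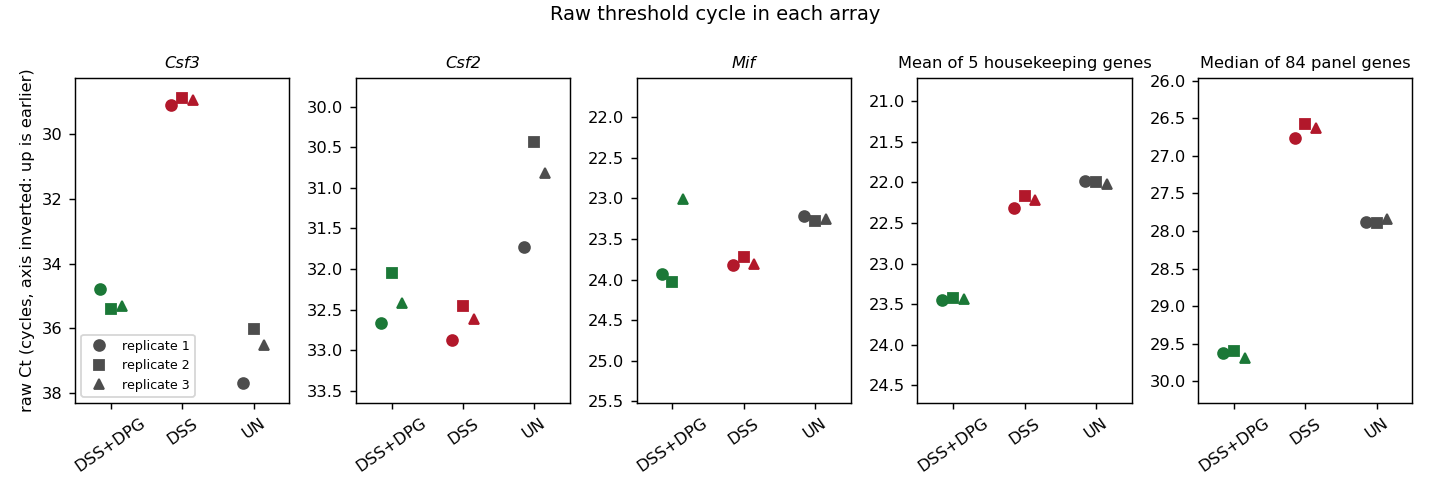
Raw Ct in cycles on each of the 9 arrays for Csf3, Csf2 and Mif, the mean of the 5 housekeeping genes and the median of the 84 panel genes, for DSS+DPG, DSS and UN; the axes are inverted so that up is earlier, and each panel has its own span. Csf3 was earliest on the DSS arrays (28.89 to 29.11), while the Csf2 Ct lay between 32.05 and 32.87 in both DSS-treated groups and between 30.43 and 31.73 in UN.

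Csf2 changed in the direction opposite to Csf3 in both comparisons with the DSS group. It was 2.69 times lower in DSS than in UN colon and 2.79 times higher in DSS+DPG than in DSS colon, and DSS+DPG and UN colon were within 1.04-fold of each other. The Csf2 Ct was 32.66, 32.05 and 32.42 on the DSS+DPG arrays, 32.87, 32.46 and 32.61 on the DSS arrays and 31.73, 30.43 and 30.81 on the UN arrays. In raw cycles the UN arrays were earliest and the DSS+DPG and DSS arrays overlapped. Relative to the housekeeping genes, minus delta Ct averaged -8.94 ± 0.30 in DSS+DPG, -10.42 ± 0.13 in DSS and -8.99 ± 0.67 in UN (SD, n = 3 arrays each). On that scale the DSS arrays were lowest, between -10.56 and -10.30, with no overlap with the DSS+DPG arrays (-9.21 to -8.62) or the UN arrays (-9.74 to -8.44), while the arrays of DSS+DPG and UN overlapped.

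The log2 change of Csf2 in DSS against UN was -1.43 ± 0.32 (SE, limma, interval -2.18 to -0.68, adjusted p = 0.00327), and only 3 panel genes fell further. With other references this change ran from -0.95 with Gapdh alone to -2.87 against the panel median, with the same direction and call. Csf2 in DSS+DPG differed from DSS by 1.48 ± 0.32 (interval 0.73 to 2.23, adjusted p = 0.00251), rank 2 from the top of the 84 genes. Set against UN it was 0.05 ± 0.32 (adjusted p = 0.872), with an interval from -0.70 to 0.80 that leaves room for a change in either direction. The size of the difference between DSS+DPG and DSS rests on the housekeeping genes. The raw Ct of Csf2 came only 0.27 cycles earlier in DSS+DPG than in DSS, while the housekeeping mean came 1.21 cycles later.

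Mif did not pass the test in DSS against UN and was higher with DSS+DPG than in both other groups. Its Ct was 23.93, 24.03 and 23.01 on the DSS+DPG arrays, 23.82, 23.72 and 23.81 on the DSS arrays and 23.21, 23.28 and 23.25 on the UN arrays. The arrays within DSS and within UN were close to one another, and the third DSS+DPG array stood apart as the earliest of all 9. Minus delta Ct averaged -0.22 ± 0.57 in DSS+DPG, -1.55 ± 0.043 in DSS and -1.25 ± 0.034 in UN (SD, n = 3 arrays each). The DSS+DPG arrays lay between -0.60 and 0.43, above all arrays of the other groups, and all DSS arrays lay below all UN arrays.

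The log2 change of Mif was -0.31 ± 0.24 in DSS against UN (SE, limma, interval -0.88 to 0.26, adjusted p = 0.26), 1.34 ± 0.24 in DSS+DPG against DSS (interval 0.77 to 1.91, adjusted p = 0.00097) and 1.03 ± 0.24 in DSS+DPG against UN (interval 0.46 to 1.60, adjusted p = 0.00393). With DSS+DPG, Mif was thus 2.52-fold above DSS and 2.04-fold above UN. Mif on the third DSS+DPG array was 0.97 cycles earlier than the mean of the other DSS+DPG arrays, the earliest such deviation of the 84 panel genes, of which 81 stayed within 0.5 cycles and whose median deviation was 0. Without that array, the log2 change of Mif was 1.01 against DSS (adjusted p = 1.26e-06) and 0.71 against UN (adjusted p = 1.19e-05), and in DSS against UN, where the log2 change stays -0.31, the adjusted p became 0.000572. The call on Mif in DSS against UN thus depends on the spread of Mif on the DSS+DPG arrays, which share the estimate of error.

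**Figure D2:**
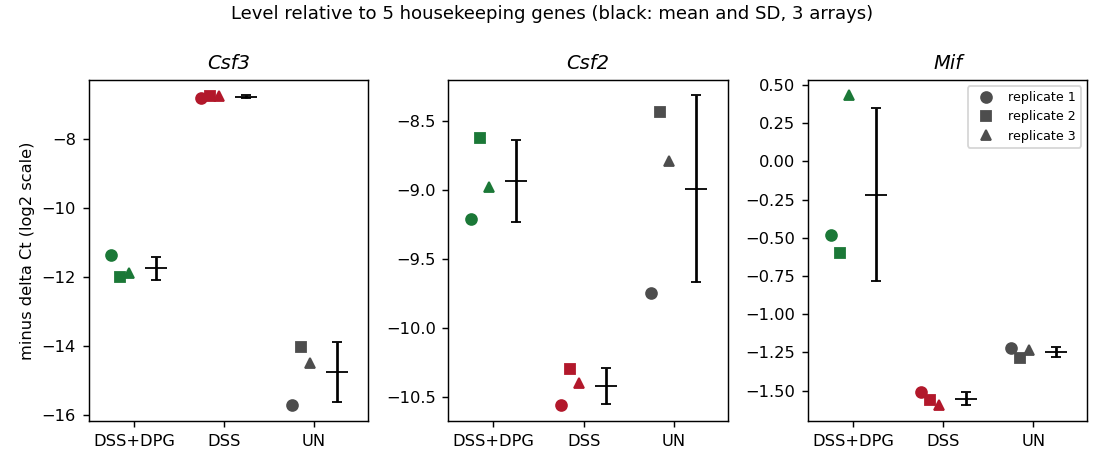
Minus delta Ct (log2 scale, relative to the mean of 5 housekeeping genes) of Csf3, Csf2 and Mif on each array of DSS+DPG, DSS and UN, with the mean and SD of 3 arrays in black; axes differ in span. DSS arrays were highest for Csf3 (mean -6.76) and lowest for Csf2 (mean -10.42) and Mif (mean -1.55), and the third DSS+DPG array of Mif (0.43) stood apart.

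Most of the panel passed the test in each comparison, so that passing it did not mark the members out. For DSS against UN, 2 of the 3 members passed, beside 91.7% of the 84 genes, and all 3 had arrays that did not overlap, beside 95.2%. All 3 passed for DSS+DPG against DSS, beside 89.3%, and all 3 had arrays that did not overlap, beside 90.5%. For DSS+DPG against UN 2 of 3 passed, beside 91.5% of the 82 genes tested, and 2 had arrays that did not overlap, beside 94% of the 84. The directions were less even. With DSS+DPG, 13.1% of the panel rose and 76.2% fell relative to DSS around a median log2 change of -1.30, and Csf2 and Mif were among those that rose, at ranks 2 and 3 from the top, whereas Csf3 fell. With DSS, 61.9% rose and 29.8% fell relative to UN around a median of 0.71, and Csf3 was among those that rose and Csf2 among those that fell. With DSS+DPG, 22% rose and 69.5% fell relative to UN around a median of -0.66, and Csf3 and Mif rose. No test was made of the members as a list.

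**Figure D3:**
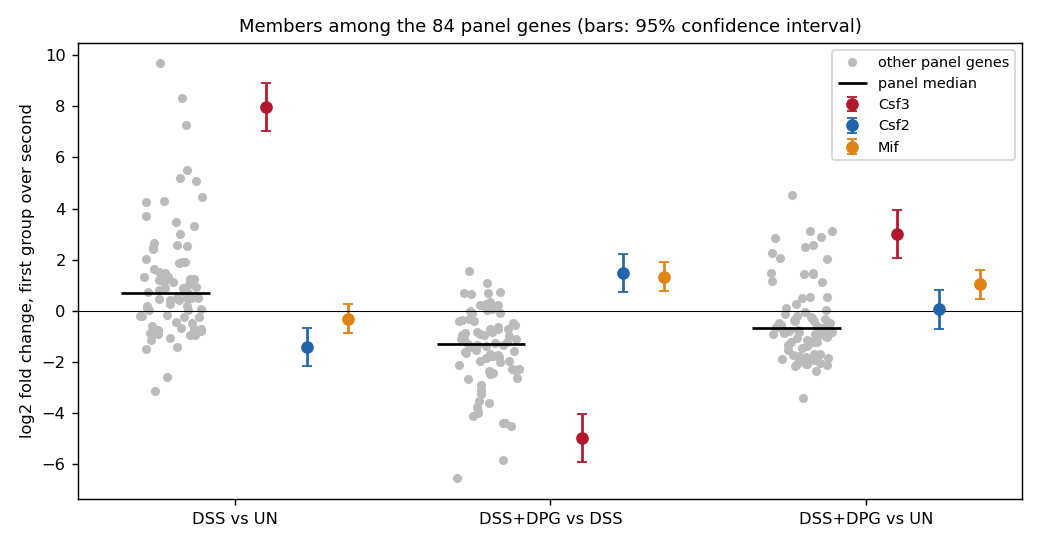
Log2 fold change, first group over second, of Csf3, Csf2 and Mif (coloured, with 95% confidence intervals) beside the other panel genes (grey) and the panel median (black line) in the 3 comparisons. Csf3 lay near the top in DSS against UN (7.98) and near the bottom in DSS+DPG against DSS (-4.98), where Csf2 (1.48) and Mif (1.34) lay near the top.

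The difference between the changes of a pair of members on the same arrays needs no housekeeping gene, because any reference cancels. The Csf3 change exceeded the Csf2 change by 9.41 on the log2 scale in DSS against UN, a 680-fold shift of their ratio. Between DSS+DPG and DSS the same difference was -6.46 (87.8-fold), and between DSS+DPG and UN it was 2.95 (7.75-fold). Csf3 against Mif gave 8.29, -6.31 and 1.98 in the same 3 comparisons. In each of these 6 cases the within-array ratios of the 2 groups did not overlap, and the exact permutation p was 0.1, the smallest that 3 arrays against 3 allow (two-sided). The comparisons of DSS+DPG with UN depended on late Ct values of Csf3. With every Ct above 35 set to 35, the difference there was 1.45 for Csf3 against Csf2 and 0.48 for Csf3 against Mif (exact permutation p = 0.4).

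The changes of Csf2 and Mif differed less than those of Csf3 and either gene. Their within-array log2 ratio averaged -8.72 ± 0.70 in DSS+DPG, -8.86 ± 0.16 in DSS and -7.74 ± 0.70 in UN (SD, n = 3 arrays each). The Csf2 change was below the Mif change by a log2 difference of -1.12 in DSS against UN (exact permutation p = 0.1, no overlap). Between DSS+DPG and DSS the difference was 0.14 (exact permutation p = 0.7), and leaving out single arrays gave -0.21 to 0.49, so no difference between their rises was detectable. Between DSS+DPG and UN it was -0.98 (exact permutation p = 0.2). The 9 p-values of the pairs were not adjusted, since none can go below 0.1.

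Likeness of pattern was described as the root mean square difference over the 9 arrays between minus delta Ct profiles, each centred on its own mean, with no test, and the genes share every array and reference. The 3 genes nearest to Csf3 were Il1b (0.54), Il6 (0.70) and Cxcl3 (0.97), an interleukin that induces Csf3, the acute phase interleukin and a neutrophil chemokine, against a median distance of 3.09 over the panel. The nearest to Csf2 were Mapk3 (0.45), Cdh1 and Vegfa (0.60 each), and Mif was seventh at 0.69, against a median of 1.36. The nearest to Mif were Itga3 (0.53), Mapk3 (0.56) and Vegfa (0.61), with Csf2 at rank 5 (0.69) and a median of 1.24. Csf3 was 81st of 83 from both Csf2 and Mif. Mapk3, which encodes the kinase ERK1, changed on the log2 scale by -0.93 in DSS against UN and by 0.74 in DSS+DPG against DSS, the same directions as Csf2.

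Csf2 and Mif both rose in DSS+DPG against DSS relative to the housekeeping genes. The 250 bases before the outermost RefSeq start of each are therefore shown, from the RefSeq promoter table of GRCm38.p6. That table held no window of Csf3, so Csf3 was not searched for motifs. Csf2 and Mif both lie on the minus strand and the sequences read 5′ to 3′ towards the start. Capitals mark matches, on either strand, to the GC box GGGCGG, whose reverse complement reads CCGCCC, and to the cAMP response element TGACGTCA.
Csf2, chr11:54249900-54250149: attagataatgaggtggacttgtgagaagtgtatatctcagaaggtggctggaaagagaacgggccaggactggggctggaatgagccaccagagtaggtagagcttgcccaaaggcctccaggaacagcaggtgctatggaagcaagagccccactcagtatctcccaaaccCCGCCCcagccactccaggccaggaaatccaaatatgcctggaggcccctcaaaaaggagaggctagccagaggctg
Mif, chr10:75860278-75860527: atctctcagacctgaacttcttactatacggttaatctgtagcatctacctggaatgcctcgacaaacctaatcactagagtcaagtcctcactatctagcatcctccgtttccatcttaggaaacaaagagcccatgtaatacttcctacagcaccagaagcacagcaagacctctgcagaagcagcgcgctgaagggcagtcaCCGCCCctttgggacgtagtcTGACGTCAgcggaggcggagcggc
The Csf2 window held a GC box whose first base is at -77 from the start, and the Mif window held a GC box at -45 and a cAMP response element at -24. Of 32851 windows of the same length, 32.7% held GGGCGG and 1.55% held TGACGTCA on either strand. The NF-kB motif GGGRNNYYCC (R is A or G, Y is C or T, N is any base) was in neither of these windows and in 7.25% of all windows. Bases outside the windows were not searched, so a site elsewhere in either promoter would not have been seen. A match is a description of the letters and no sign that a factor binds there.

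Il1b and Tnf, whose products induce Csf3, and the interleukin gene Il6 had the directions of Csf3. The lists that follow are read beside the whole panel, of which 61.9% rose and 29.8% fell in DSS against UN, 13.1% rose and 76.2% fell in DSS+DPG against DSS, and 22% rose and 69.5% fell in DSS+DPG against UN. Il1b, Tnf and Il6 all rose in DSS against UN (3 of 3, median log2 change 7.27, panel 0.71) and all fell in DSS+DPG against DSS (3 of 3, median -4.40, panel -1.30). Il6 changed by 8.33 and -5.85 in these comparisons and Il1b by 7.27 and -4.40. Tnf, the tumour necrosis factor, changed by 3.69 and -1.61. All 3 were also higher in DSS+DPG than in UN, with a median of 2.48. Like Csf3, these 3 genes were above the untreated level in DSS+DPG colon, and unlike them Csf2 was below the untreated level in DSS colon.

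The chemokines that call in the cells on which these factors act followed the same directions. The neutrophil attractants Cxcl1, Cxcl3 and Cxcl5 rose in DSS against UN (3 of 3, median 5.07, beside 61.9% and 0.71 for the panel) and fell in DSS+DPG against DSS (3 of 3, median -4.40, beside 76.2% and -1.30). Cxcl3 changed by 9.68 and -6.55. Set against UN, DSS+DPG colon had higher Cxcl3 (3.13) and Cxcl5 (1.48), and Cxcl1 was at 0.033 (adjusted p = 0.752). The monocyte attractants Ccl7 and Ccl12 rose in DSS (median 3.42) and fell in DSS+DPG against DSS (median -2.32), and in DSS+DPG against UN Ccl7 was higher by 2.26 and Ccl12 was at -0.05 (adjusted p = 0.45).

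Among the transducers downstream of these receptors, the kinase gene Mapk3 fell by 0.93 on the log2 scale in DSS against UN and rose by 0.74 in DSS+DPG against DSS. Stat3, the main transcription factor behind the G-CSF receptor, went the other way, with log2 changes of 0.43 and -0.54. Relative to UN, Mapk3 (-0.19) was lower in DSS+DPG and Stat3 was at -0.11 (adjusted p = 0.0555). These are transcript levels and say nothing of phosphorylation.

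T cells are a source of Csf2. Of the T cell cytokines, Cd40lg, Ifng, Il2 and Il4 all rose in DSS against UN (4 of 4, median 1.46), in the direction opposite to Csf2, with the largest rise for Ifng (5.21). With DSS+DPG, Cd40lg rose by 1.55 relative to DSS as Csf2 did, while Ifng (-0.69), Il2 (-1.10) and Il4 (-1.98) fell. Their Ct reached from 31.09 to 38 on the DSS+DPG arrays, from 29.32 to 35.89 on the DSS arrays and from 32.43 to 37.27 on the UN arrays. Il2 was close to the end of the run on every array, at 35.10 or later. Ifng was at 29.32 to 29.48 on the DSS arrays and at 33.94 to 34.71 on the UN arrays.

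Markers of neutrophils and macrophages mostly had the directions of Csf3, as did most of the panel. Of Il1b, F13a1, Mmp9, Plaur and Ctsg, 4 of 5 rose in DSS against UN (median 2.48, beside 61.9% and 0.71 for the panel) and 4 of 5 fell in DSS+DPG against DSS (median -2.31, beside 76.2% and -1.30), all but Ctsg. Relative to UN, DSS+DPG had 2 of them higher and 2 lower, and Ctsg was not tested. Their mean minus delta Ct ranged from -8.21 to -8.08 on the DSS+DPG arrays, from -6.02 to -5.74 on the DSS arrays and from -8.94 to -8.90 on the UN arrays. This mean includes Ctsg, which was at the limit on the DSS+DPG and UN arrays, where its value follows the housekeeping genes alone. Ctsg, which encodes the granule protease cathepsin G and is the most specific to myeloid cells, had no Ct below 38 on any DSS+DPG or UN array, and among the DSS arrays only the second gave one, at 36.48. The part of these cells in the Csf3 result was not tested.

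Genes of structural cells were also measured. Of the epithelial genes Cdh1, Itga3, Itga6 and Itgb6, 1 rose and 2 fell in DSS against UN (median -0.36), and 2 rose and 1 fell in DSS+DPG against DSS (median 0.17). Cdh1 changed by -1.05 and 0.29 in these comparisons, in the directions of Csf2. Itgb6 changed by 0.45 and -0.94, opposite to Csf2 in both. Itga3 did not pass in DSS against UN (0.014), and Itga6 did not pass in DSS+DPG against DSS (0.089). The smooth muscle genes Acta2, Actc1 and Tagln all fell in DSS against UN (median -1.49), and in DSS+DPG against DSS 1 rose and 2 fell (median -0.40). The gene that rose, Actc1, changed by -3.15 and 1.10, also in the directions of Csf2. Of 7 fibroblast genes, 6 rose and 1 fell in DSS against UN (median 0.49), and all 7 fell in DSS+DPG against DSS (median -1.71), where 76.2% of the panel fell around a median of -1.30. The part of these cell types in the Csf2 and Mif results was not tested.

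The 17 growth factors and cytokines listed here include the 3 members but not the interleukins, chemokines or T cell cytokines of the array. Within this list, Csf3 and Csf2 stood at the ends in both comparisons with DSS. Outside it, Cxcl3 (9.68) and Il6 (8.33) rose more than Csf3 in DSS against UN. In DSS+DPG against DSS both fell more than Csf3 (-6.55 and -5.85), and Cd40lg (1.55) rose more than Csf2. In DSS against UN, Csf3 had the highest log2 change of the 17, followed by Tnf (3.69) and Hgf (2.43), and Csf2 the lowest, next to Egf (-1.42), while Mif ranked 11 of 17. For DSS+DPG against DSS the order placed Csf2 first and Mif second, ahead of Vegfa (0.35) and Tgfa (0.22), with Fgf7 (-4.01) and Csf3 at the low end. Of the 17, 9 rose and 6 fell in DSS against UN (median 0.51), and 4 rose and 12 fell in DSS+DPG against DSS (median -0.98), shares near those of the whole panel. For DSS+DPG against UN, Csf3 ranked 1, Mif 4 and Csf2 6 of the 17. The 4 that rose in DSS+DPG against DSS were Csf2, Mif, Vegfa and Tgfa.

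**Figure D4:**
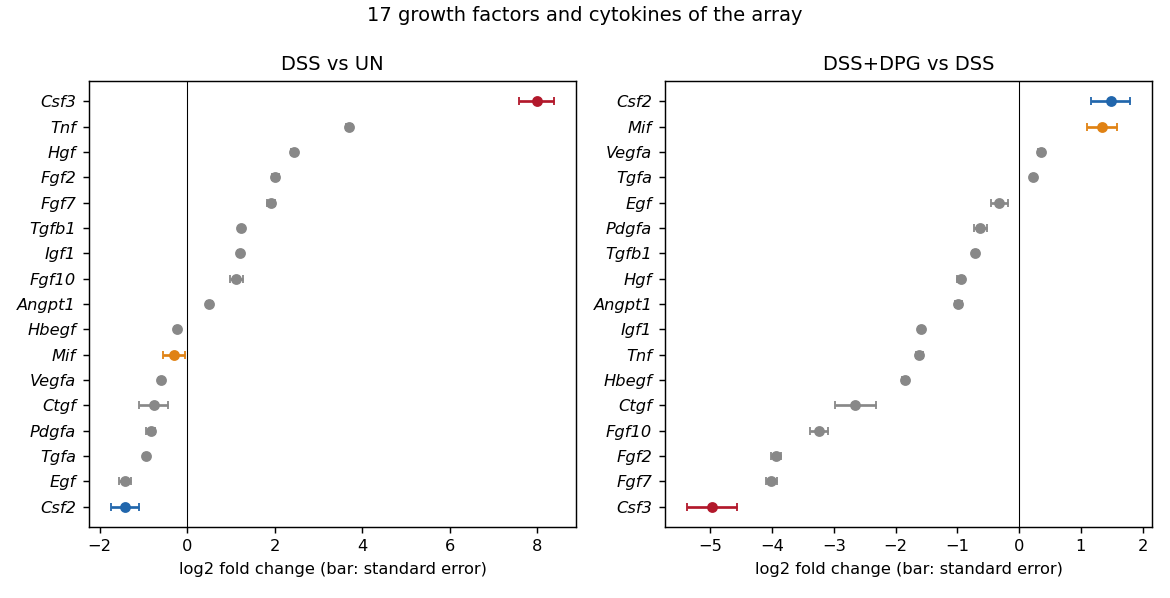
Log2 fold change with its standard error of the 17 listed growth factors and cytokines, ordered from highest to lowest, in DSS against UN and in DSS+DPG against DSS. Interleukins, chemokines and T cell cytokines of the array are not among them. Csf3 (red) stood first with 7.98 and last with -4.98, and Csf2 (blue) stood last with -1.43 and first with 1.48.

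The error of these values differed by gene. The SD of the Ct over 3 arrays was 0.307 in DSS+DPG, 0.207 in DSS and 0.668 in UN for Csf2, and 0.327, 0.112 and 0.868 cycles in the same groups for Csf3, while the median panel gene had 0.0651, 0.0594 and 0.0522 cycles. Csf3 and Csf2 had the largest and second largest SD of the 84 genes on the UN arrays. On the first UN array Csf3 was 1.44 and Csf2 1.11 cycles later than the mean of the other UN arrays, while 80 of 84 panel genes stayed within 0.5 cycles. On the UN arrays their ratio within an array was steadier, with a log2 ratio of Csf3 to Csf2 of -5.75 ± 0.20 (SD, n = 3). On the DSS arrays it was 3.66 ± 0.095 (SD, n = 3). On the DSS+DPG arrays the ratio was less steady than either gene, at -2.80 ± 0.62 (SD, n = 3). Without the first UN array the log2 change of Csf2 in DSS against UN was -1.80 and that of Csf3 was 7.50, both in the same direction.

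The reference bore on the members to different degrees. In DSS+DPG against DSS, 81 of 84 panel genes had a later raw Ct, with a median of 2.51 cycles, and each housekeeping gene did too, by 0.39 cycles for Hsp90ab1 up to 1.71 for B2m. Csf3 was later by 6.19 cycles, Csf2 earlier by 0.27 and Mif earlier by 0.13. On raw Ct with no reference, Csf3 kept its calls in all 3 comparisons, while in DSS+DPG against DSS the log2 change was 0.27 for Csf2 (adjusted p = 0.439) and 0.13 for Mif (adjusted p = 0.616). Against the panel median in place of the housekeeping genes, the same comparison gave -3.21 for Csf3, 3.25 for Csf2 and 3.11 for Mif. The data do not say which reference is right, so the rises of Csf2 and Mif are rises relative to the housekeeping genes and to most of the panel. In DSS against UN the housekeeping genes moved apart, with raw Ct differences from -1.10 cycles for B2m to 1.08 for Hsp90ab1.

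Mif itself entered the authors' own reference. The averages they deposited imply a reference Ct of 24.86 for DSS+DPG, 24.48 for DSS and 23.84 for UN, which equals a geometric mean over the Ct of Itga3, Mif and Hsp90ab1 and not the mean of the 5 housekeeping genes. A change of Mif is damped when Mif is part of what it is divided by. Under that reference, the log2 change in DSS+DPG against DSS was 0.51 for Mif and 0.65 for Csf2 (adjusted p = 0.0628), and that of Mif in DSS against UN was 0.099.

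**Figure D5:**
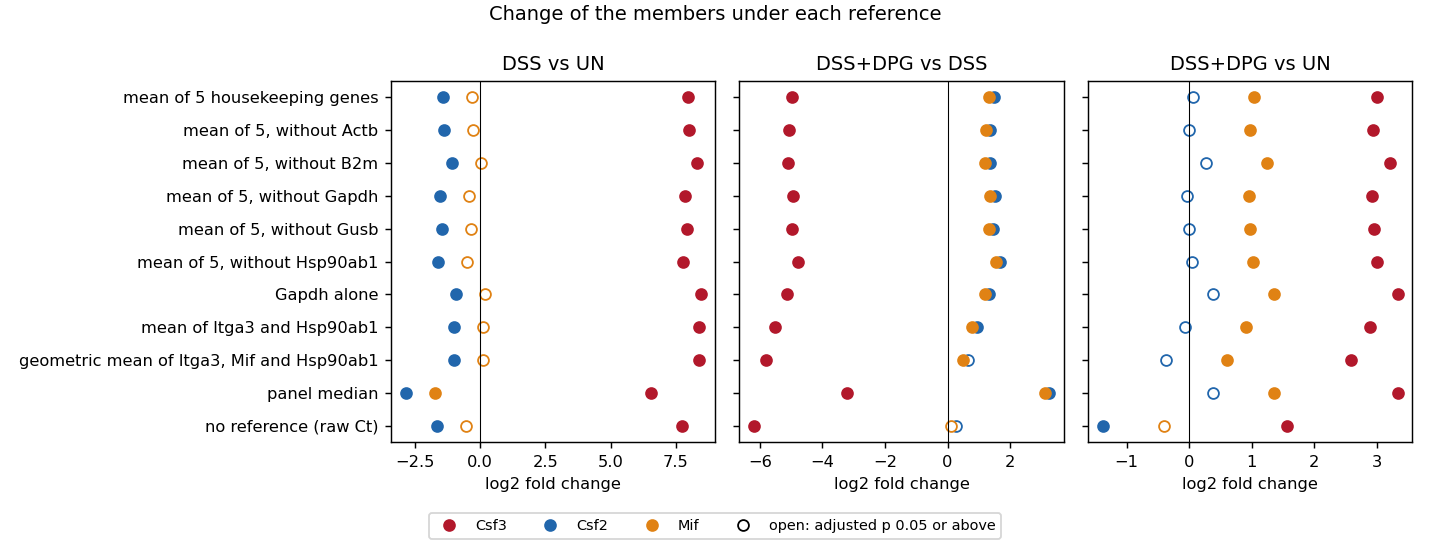
Log2 fold change of Csf3, Csf2 and Mif in the 3 comparisons under each reference, from the mean of 5 housekeeping genes at the top to raw Ct at the bottom; open points have an adjusted p of 0.05 or above. Csf3 kept its sign and call throughout, whereas Csf2 and Mif in DSS+DPG against DSS ranged from 0.27 and 0.13 on raw Ct to 3.25 and 3.11 against the panel median.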

How the data were processed

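Colon RNA of 3 pools, each of 5 mice, was measured on 3 PCR arrays per pool. Raw Ct values, which are on a log2 scale and not normalized, were deposited by the authors for every well of the SYBR green assay. Averages, delta Ct, fold changes, fold regulation and p-values of the authors' own comparisons were deposited too. Those comparisons were not used here. For 267 of 267 combinations of gene and group the deposited average Ct lay within 0.1 cycle of the average recomputed from the wells.

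A limit of 38 replaced later or missing Ct values. The 5 housekeeping genes of the study's methods gave the reference. Using R 4.3.3 and limma 3.58.1, minus delta Ct was modelled across the 9 arrays without a block, Benjamini-Hochberg adjustment covered each panel gene that could be tested (82 or 84), and an adjusted p under 0.05 was called. Pairs of members were compared by two-sided exact permutation tests over arrays in SciPy 1.17.1. The fit was tested on simulated data with known changes. The simulated arrays of every group had the spread of the DSS arrays, so the members' unequal spread between groups was not tested. Genes with a late Ct in UN, such as Csf3, were never among the changed ones. The number of arrays limits the precision, and a Ct has no counting depth.

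The members and gene lists were chosen with earlier results of these data known. The genes named are the 3 members, the housekeeping genes, the 3 genes nearest in pattern to each member, and up to 3 genes of each list with the largest change. Further genes of the lists are named where a count turns on them. Alternatives were other references, Ct limits of 35 and 40, genes with every Ct below 35 only, the 2 compared groups alone, a replicate block, and each array left out in turn. Results of some single genes are not reported here.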

Additional observations from a re-analysis of the deposited data

How the results depend on the processing

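The log2 change of Csf3 kept its direction and its call in all 3 comparisons under all 23 alternatives run, with 7.50 to 8.35 in DSS against UN, -5.17 to -4.85 in DSS+DPG against DSS and 2.52 to 3.37 in DSS+DPG against UN when single arrays were left out. It could not be computed over genes with every Ct below 35, since its Ct was later. Against the panel median it was 6.54, -3.21 and 3.34 in these comparisons. Csf2 in DSS+DPG against DSS no longer passed against the authors' reference, the geometric mean for Itga3, Mif and Hsp90ab1 (0.65, adjusted p = 0.0628) or on raw Ct (0.27, adjusted p = 0.439), and Mif no longer passed there on raw Ct (0.13, adjusted p = 0.616). Csf2 in DSS+DPG against UN, not past the threshold with the 5 housekeeping genes, turned to -0.37 with that geometric mean, -0.065 with the mean of Itga3 and Hsp90ab1, -0.011 without Actb, -0.028 without Gapdh and -1.39 on raw Ct (adjusted p = 0.00363), and ran from -0.32 to 0.33 when single arrays were left out. Mif in DSS+DPG against UN turned to -0.41 on raw Ct (adjusted p = 0.137). Mif in DSS against UN turned to 0.17 with Gapdh alone, 0.099 with the geometric mean, 0.11 with the mean of Itga3 and Hsp90ab1 and 0.027 without B2m. It passed at -1.75 against the panel median (adjusted p = 0.000206) and at -0.31 in a fit of only the 2 groups compared (adjusted p = 0.000325), and ran from -0.33 to -0.29 without single arrays. With a Ct limit of 35, Csf3 minus Csf2 in DSS+DPG against UN was 1.45 and Csf3 minus Mif was 0.48. Csf2 minus Mif in DSS+DPG against DSS ran from -0.21 to 0.49 without single arrays. Why these values moved was not tested beyond what the choice of reference itself changes.

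The number of panel genes called stayed within 1.5 times its value under every alternative, and was 76 to 78, 74 to 76 and 73 to 77 without single arrays. Its split moved with the reference: against the panel median 21 rose and 51 fell in DSS against UN, and 48 rose and 25 fell in DSS+DPG against DSS.

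Array numbers were not used to pair the arrays. Deviations of same-numbered arrays correlated at 0.338, 0.0734 and 0.208 between DSS and UN, at 0.106, 0.119 and -0.0227 between DSS+DPG and DSS, and at -0.162, -0.186 and -0.0544 between DSS+DPG and UN. Between DSS and UN, differently numbered arrays correlated at -0.345 to 0.288. With the replicate block, no member's call changed, and in DSS against UN the log2 change was -1.43 for Csf2 (adjusted p = 0.00100), 7.98 for Csf3 (adjusted p = 1.11e-05) and -0.31 for Mif (adjusted p = 0.258). The SE of the Csf2 change was 0.205 with the block and 0.320 without it, and the Csf2 Ct followed the array number in every group, as given below.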

Other observations

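On the first array of each group the Csf2 Ct was the latest of its group (32.66 in DSS+DPG, 32.87 in DSS and 31.73 in UN), and on the second array it was the earliest (32.05, 32.46 and 30.43 in the same order). For Csf3 the first array was latest in DSS and UN but earliest in DSS+DPG, and the Mif Ct showed no such order. These are values of single arrays, and no test was made of them.

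By raw Ct, Csf2 and Mif came 1.66 and 0.54 cycles later in DSS than in UN, where the panel median was 0.48 cycles earlier, and 0.27 and 0.13 cycles earlier in DSS+DPG than in DSS, where the panel median was 2.51 cycles later.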
